A study of Mus musculus with 3 samples.

Results

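The genes of nitric oxide and endothelin signaling were examined in sorted endothelial cells of the renal cortex of adult mice. The list held 10 genes, and each was taken at its probeset with the highest mean among the probesets that the array's probe table assigns to 1 gene. It covers the 3 nitric oxide synthases Nos1, Nos2 and Nos3, the Nos3 trafficking protein Nostrin, Ddah2, the endothelins Edn1 and Edn3, their converting enzyme Ece1, and the receptors Ednra and Ednrb. Of these, 9 had such a probeset, 1 each, among 19938 genes measured in this way on 35557 probesets. Ednra, the receptor of smooth muscle, had none in the table used here and was not analysed here.

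The samples were 3 sorts of GFP-positive cells, called replicates 1, 2 and 3, each from 1 kidney of an adult (TS28) mouse that carried Tg(TIE2GFP)287Sato on a mixed background primarily CD-1, with sex given as unknown. No treatment is given for them, and they form 1 group. The study describes its samples as biologically independent, and the labels give each as 1 kidney without naming the mouse. In this transgene the promoter of Tek (Tie2) drives GFP. That promoter is used by endothelial cells in general and by some blood cells, so the sort does not separate arteries, capillaries and veins. The medulla had been cut away, the glomeruli had been held back on a 40 µm mesh, and the RNA was amplified in 1 round before hybridization to Affymetrix Mouse Gene 1.0 ST arrays. With 1 group no conditions could be compared, so each mean was tested against a signal of 100, a log2 signal of 6.64, which is the raw level that the study's filter required. "Above" and "below" refer to the one-sided moderated test of limma with Benjamini-Hochberg adjustment over all probesets, at an adjusted p under 0.05. Signals of different probesets depend on their probes, so the genes were set against this limit and not against each other.

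Nitric oxide is made from arginine by the nitric oxide synthases and relaxes the smooth muscle of vessels through cyclic GMP. In endothelium the enzyme is Nos3. Nostrin moves Nos3 from the plasma membrane into vesicles, and the DDAH enzymes break down asymmetric dimethylarginine, an inhibitor of the synthases. The endothelins are secreted peptides that are cut from large precursors, finally by Ece1. Edn1 constricts vessels through Ednra on smooth muscle, while Ednrb on endothelial cells clears the peptide and stimulates nitric oxide release. In the kidney Ednrb and Edn1 are also known from the collecting duct, where they limit sodium reabsorption.

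All 12 endothelial markers were above a signal of 100, so the data did not go against the label of the sort. Pecam1 had a log2 signal of 10.07 ± 0.02, Cdh5 10.62 ± 0.0039, Tek 10.41 ± 0.16 and Tie1 8.16 ± 0.09 (SD, n = 3). RNA of other cells was measured as well. Of 8 proximal tubule markers 7 were above, with Lrp2 at 9.39 ± 0.08, as were Umod (10.75 ± 0.36) and Slc12a1 (8.55 ± 0.23) of the thick ascending limb. All 8 leukocyte and macrophage markers and all 3 measured podocyte markers were below. Among all 19938 genes 22.9% were above and 65.0% below. Most genes were thus below, and such counts do not show that these cells were absent. The smooth muscle and pericyte markers varied most between samples, and 8 of 9 were highest in replicate 3. Their signals summed to 1790, 1797 and 3671 in the order of the replicates, while those of the endothelial markers summed to 12660, 13160 and 10780. These are bulk samples, in which fewer cells of a type and less RNA per cell cannot be told apart.

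**Figure D1:**
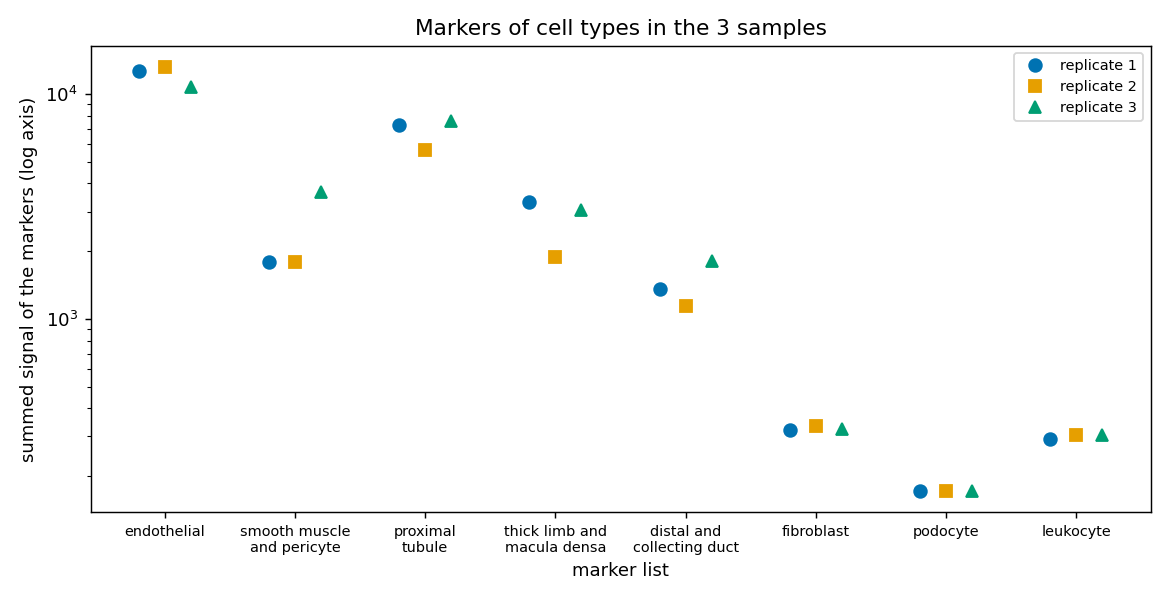
Summed signal, on a log axis, of the markers of 8 cell types in each of the 3 samples, 1 point per sample. The smooth muscle and pericyte sum is highest in replicate 3, at 3671, where the endothelial sum is lowest, at 10780, and the proximal tubule sum is lowest in replicate 2, at 5619.

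Of the 9 measured nitric oxide and endothelin genes, 4 were above a signal of 100, 3 were below it and 2 were neither. Without replicate 1, 2 were above and 3 below. With all 3 samples, those above were Ddah2, Edn1, Ece1 and Ednrb. Those below were Nos1, Nos2 and Edn3, and Nos3 and Nostrin were neither. Of all 19938 genes, 22.9% were above and 65.0% were below. The median log2 signal of the 9 genes was 7.30, and that of all genes was 5.88. With 9 measured genes these counts are a description. Without a test, 5 of the 9 had a signal of 100 or more in each sample and 3 were under 100 in each, as were 28.0% and 66.8% of all genes. The side of the limit depended on the limit itself. Against a signal of 50, 8 of the 9 were above and 1, Nos2, was below (51.3% and 40.5% of all genes), and against 200, 3 were above and 3 below (9.37% and 80.6% of all genes).

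**Figure D2:**
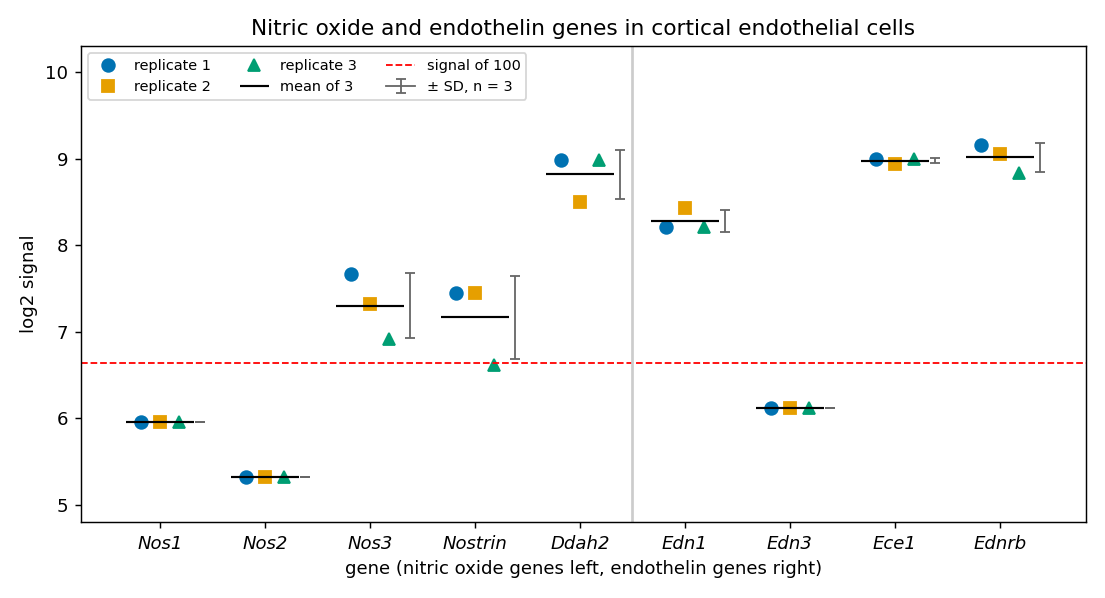
Log2 signal of the 9 measured genes in replicates 1, 2 and 3, with the mean of the 3 samples (black line), the SD (grey bar) and a signal of 100 (dashed line). Ddah2, Edn1, Ece1 and Ednrb lie above the line in every sample, Nos1, Nos2 and Edn3 lie below it with 3 equal values, and Nostrin falls to the line in replicate 3.

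Nos3, the endothelial nitric oxide synthase, gave 7.66, 7.32 and 6.92 on the log2 scale in replicates 1, 2 and 3, which are signals of 203, 160 and 121. All 3 samples exceeded 100, and they differed by 1.68-fold between replicates 1 and 3. Against this spread the mean, 7.30 ± 0.37 (SD, n = 3), did not pass the test for a level over 100 (adjusted p = 0.147 from limma). Its 95% confidence interval, from 6.54 to 8.07, holds the limit. The marker gene of the sort, Tek, was also lowest in replicate 3, at 10.24 against 10.55 and 10.44, and Cdh5 was at 10.62 in each sample.

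Nos1, the neuronal synthase, which in the kidney is best known from the macula densa, had a log2 signal of 5.96 in every sample, and Nos2, the inducible synthase of macrophages and other activated cells, had 5.32 in every sample. Both were below 100 (adjusted p = 8.44e-09 for Nos1 and 6.51e-10 for Nos2 from limma). These p-values rest on 3 equal values, and with the spread of other probesets of like mean the adjusted p was 0.0191 for Nos1 and 0.00617 for Nos2. The Nos2 value was not particular to its probeset, since 94 other probesets held the same number in all 3 samples. For Nos1 there were 41 such probesets. Of 6 markers of the thick ascending limb and macula densa, 2 were above, 2 were below and 2 were neither. Those below were Pappa2 at 4.96 in each sample and Ptgs2 at 5.71 ± 0.13 (SD, n = 3). Umod and Slc12a1 were above, and Kcnj1 (8.38 ± 1.17) and Cldn16 (6.50 ± 1.47) were neither. Of all genes 22.9% were above and 65.0% below, and the part of macula densa cells in the Nos1 value was not tested. The macrophage genes Ptprc (5.12), Cd68 (5.19), Adgre1 (4.36) and Csf1r (4.92) were below with equal values in the 3 samples.

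Nostrin was at 7.44 in replicates 1 and 2 and at 6.61 in replicate 3, so that 2 samples lay above a signal of 100 and the third, at a signal of 97.8, just under it. Its mean was 7.16 ± 0.48 (SD, n = 3), with a 95% confidence interval from 6.18 to 8.15, and it was neither above nor below (adjusted p = 0.327 for a mean above 100 from limma). When replicate 3 was left out Nostrin passed the test (adjusted p = 2.08e-14 from limma), but on 2 equal numbers. Nostrin had the largest SD of the 9 genes, and 88.1% of the 6127 genes whose mean reached 100 had a smaller one. Those 6127 include 1684 genes with 3 equal values and thus an SD of 0. The genes whose deviations from their own mean were nearest to those of Nostrin over the 3 samples were Ranbp9, Acnat2 and Sdr39u1, at Euclidean distances of 0.0062, 0.0102 and 0.0113. Ranbp9, for example, had log2 signals of 8.05, 8.05 and 7.23. Over 3 samples many genes can share a pattern, so this is a description.

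Ddah2, which encodes a dimethylarginine dimethylaminohydrolase, gave the same log2 signal, 8.98, in replicates 1 and 3, against 8.49 in replicate 2. It was the lowest in replicate 2 by 1.4-fold. The mean of 8.82 ± 0.28 (SD, n = 3) was above 100 (adjusted p = 0.00869 from limma), and the adjusted p was 0.108 without replicate 1 and 0.161 without replicate 3. Tubule markers were lower in replicate 2 too: the summed signal of the proximal tubule markers was 7254, 5619 and 7546 in replicates 1, 2 and 3, and 6 of 8 were lowest in replicate 2. Their part in the Ddah2 value was not tested.

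The 2 measured endothelins lay on opposite sides of the limit. Edn1, the main endothelin of vessels, gave the same log2 signal, 8.21, in replicates 1 and 3, against 8.43 in replicate 2, or signals of 296, 345 and 296 in the order of the replicates. The samples differed by 1.17-fold, and each was far over 100. The mean of 8.28 ± 0.13 (SD, n = 3) was above the limit (adjusted p = 0.00327 from limma). With 2 samples the adjusted p was 0.0618 without replicate 1 and 0.101 without replicate 3. Edn3, a ligand best known for its role in the neural crest through Ednrb, was at 6.12 in each sample, a signal of 69.5. It was below 100 (adjusted p = 2.19e-08 from limma), and the adjusted p was 0.037 when its 3 equal values were given the spread of other probesets. Another 2 probesets held the same number in all samples.

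Promoter sequences from RefSeq (GRCm38.p6), which run from 250 bases before to 50 bases after the annotated start, were found for 8 of the 10 genes. Those of the ligands on either side of the limit and of the receptor above it are shown here, 5′ to 3′ on the strand of the gene. The windows are chr13:42301226-42301525 (plus strand) for Edn1, chr2:174760369-174760668 (plus strand) for Edn3 and chr14:103843652-103843951 (minus strand) for Ednrb. Capitals mark matches, on either strand, to the TATA box TATAAA, the AP-1 motif TGANTCA, the GATA motif NGATAA, the core of the hypoxia response element ACGTG, the CACCC box of Kruppel-like factors and the ETS motif CCGGAA.
Edn1: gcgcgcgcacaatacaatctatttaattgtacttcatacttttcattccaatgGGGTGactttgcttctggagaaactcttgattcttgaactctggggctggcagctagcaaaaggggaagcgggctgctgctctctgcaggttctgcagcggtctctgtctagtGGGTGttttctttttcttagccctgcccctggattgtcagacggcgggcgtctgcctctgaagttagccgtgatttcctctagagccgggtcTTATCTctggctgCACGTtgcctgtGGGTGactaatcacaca
Edn3: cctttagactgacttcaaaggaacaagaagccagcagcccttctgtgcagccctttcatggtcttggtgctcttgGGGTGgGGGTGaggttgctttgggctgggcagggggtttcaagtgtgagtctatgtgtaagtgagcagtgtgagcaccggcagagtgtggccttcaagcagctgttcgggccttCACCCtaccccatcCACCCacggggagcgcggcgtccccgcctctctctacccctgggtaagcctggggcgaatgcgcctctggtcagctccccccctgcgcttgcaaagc
Ednrb: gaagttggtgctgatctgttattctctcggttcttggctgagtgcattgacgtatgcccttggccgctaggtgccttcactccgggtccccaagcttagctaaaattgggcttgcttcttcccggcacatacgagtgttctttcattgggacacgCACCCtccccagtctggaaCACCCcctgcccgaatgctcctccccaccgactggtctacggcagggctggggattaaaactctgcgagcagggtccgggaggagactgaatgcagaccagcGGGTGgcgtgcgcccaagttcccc
The window of Edn1 held 1 GATA match from position 9 after the annotated start, 1 match to the hypoxia response core from position 22, and 3 CACCC matches. The windows of Edn3 and Ednrb held only CACCC matches, 4 and 3 of them. None of the motifs searched overlapped another within these 3 windows. Among all 32851 promoter windows, 25.3% held the GATA motif, 19.6% the hypoxia response core, 57.5% the CACCC box, 14.9% the ETS motif, 13.6% the TATA box and 7.81% the AP-1 motif. A match says that these letters are present and nothing of binding in these cells.

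Ece1, the membrane metalloprotease that makes active endothelin, was the steadiest of the genes above 100. Replicates 1 and 3 shared a log2 signal of 8.99, replicate 2 had 8.94, and the samples differed by 1.04-fold. The mean was 8.98 ± 0.03 (SD, n = 3; adjusted p = 0.000102 from limma). It stayed above without any 1 of the replicates, but the fit without replicate 2 rested on 2 equal numbers.

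Ednrb, the receptor that binds all endothelins, gave 9.16, 9.05 and 8.83 on the log2 scale in the order of the replicates, or signals of 572, 531 and 456. Replicate 3 was the lowest, by 1.25-fold against replicate 1. The mean of 9.02 ± 0.17 (SD, n = 3) was above 100 (adjusted p = 0.00264 from limma), and the adjusted p was 0.0633 without replicate 2. Of 8 markers of the distal tubule and collecting duct, 2 were above (25.0%), 3 were below (37.5%) and 3 were neither. Among all genes 22.9% were above and 65.0% below. The summed signal of these markers was 1361, 1138 and 1801. Their part in the Ednrb value was not tested. Those above were Calb1 (9.36 ± 0.43) and Slc12a3 (7.76 ± 0.26), both genes of the distal tubule. Fxyd4 of the collecting duct was neither, at 6.98, 6.09 and 7.63 in replicates 1, 2 and 3. Aqp2 (6.86 ± 0.13) and Aqp3 (6.49 ± 0.16) were also neither, and Scnn1b (5.49), Scnn1g (6.09) and Avpr2 (6.39) were below.

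The 6 genes with a mean of 100 or more did not share 1 pattern across the samples. Nos3, Nostrin and Ednrb were lowest in replicate 3. Ddah2 and Ece1 were lowest in replicate 2, and Edn1 was highest there. Of all 6127 genes with a mean of 100 or more, 24.9% were lowest in replicate 3 alone and 19.1% in replicate 2 alone. The median SD of the 6 genes was 0.22 and that of the 6127 genes was 0.10, and 5 of the 6 had an SD above the latter. The 6127 include 1684 genes with 3 equal values, whose SD of 0 lowers that median, and none of the 6 is such a gene. Replicate 3 was also the sample with the highest smooth muscle and pericyte markers, at log2 signals of 8.43, 7.97 and 9.50 for Acta2 and 7.79, 8.14 and 9.44 for Myh11 in replicates 1, 2 and 3. Of the 12 endothelial markers 6 were lowest in replicate 3. Kdr, chosen after its values were seen, was among them at 9.72, 9.70 and 8.79. The others did not share this pattern. Eng and Tie1 were lowest in replicate 2 and Cldn5 in replicate 1. Tie1 was highest in replicate 3, and Flt1 and Erg held 3 equal values. The part of these cells in the values of Nos3, Nostrin and Ednrb was not tested, and with 1 array per kidney the differences between samples have no replicate check.

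**Figure D3:**
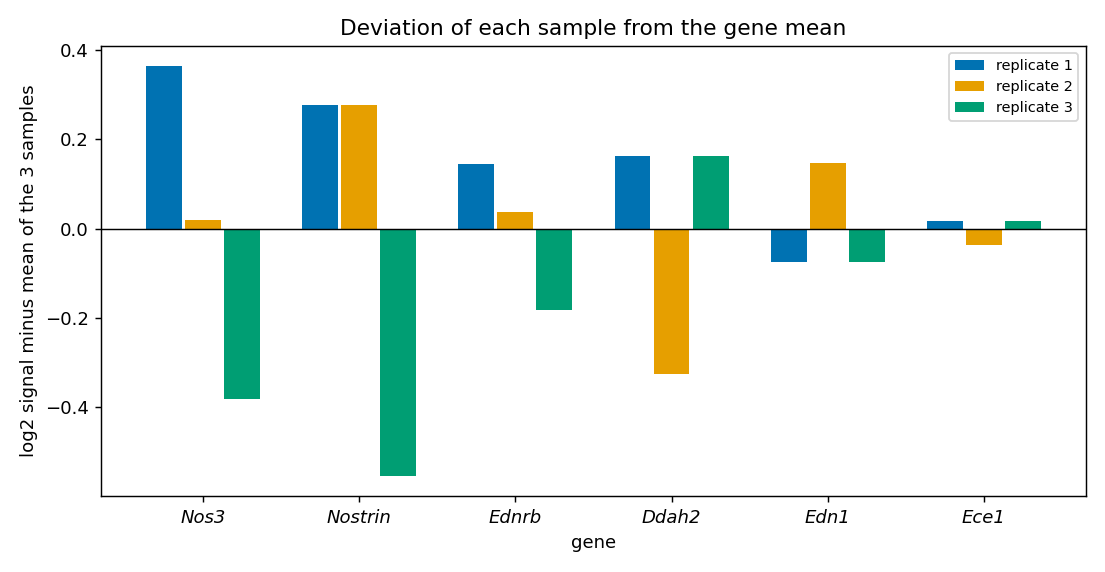
Log2 signal of each sample minus the mean of the 3 samples for the 6 genes whose mean reached 100, 1 bar per replicate. Nos3, Nostrin and Ednrb lie under their mean in replicate 3, and Ddah2 in replicate 2.

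Of 78 other genes listed for the 2 pathways, 71 were measured, and 34 were above a signal of 100 (47.9%), 24 were below (33.8%) and 13 were neither, where 22.9% of all genes were above and 65.0% below. Their median log2 signal was 6.94, and that of all genes was 5.88. When equal values were given the spread of other probesets, 25 of the 71 were above and 21 below. Of all 19938 genes 3239 were then above and 11979 below. The counts of the single lists that follow are descriptions to be read against these figures for all genes at the same setting. The list of genes that act on the synthases had 6 of 11 above, 3 below and 2 neither. Cav1, the caveolar protein that holds Nos3 inactive, was at 8.94 ± 0.01 (adjusted p = 1.24e-05 from limma), and Dynll1, a dynein light chain that binds Nos1, was at 8.92 ± 0.35 (SD, n = 3). Hsp90aa1, a chaperone of Nos3, chosen after its values were seen, had 11.63, 11.54 and 10.82 in replicates 1, 2 and 3, lowest in replicate 3 like Nos3. Of the 11 genes 5 were lowest in replicate 3 (12.7% of all genes). The 2 genes Calm2 (12.61, 12.46 and 12.67) and Calm3 (9.35, 9.34 and 9.54) were highest there (15.2% of all genes). Nos1ap (5.81), the muscle caveolin gene Cav3 (5.82) and Zdhhc21 (6.29), a palmitoyltransferase of Nos3, were below, and Nosip (7.05 ± 0.31) and the thioesterase gene Lypla1 (7.22 ± 0.43) were neither.

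Among 8 measured genes that handle arginine and methylarginines, 3 were above, 3 were below and 2 were neither. Ddah1, which shares the reaction of Ddah2 and is known from the proximal tubule, had 9.98, 9.65 and 11.36 in replicates 1, 2 and 3. It was above (adjusted p = 0.0303 from limma), and its range was wider than that of Ddah2. Agxt2, which also breaks down dimethylarginine, was highest in replicate 3 as well, at 6.60, 6.56 and 8.03, and was neither. The arginine transporter gene Slc7a1 (6.85) and the arginine methyltransferase gene Prmt1 (6.90) were above with 3 equal values. Both calls ended when these were given the spread of other probesets (adjusted p = 0.497 and 0.431), which left 1 gene above. Slc7a2 (4.76), Arg1 (4.86) and Arg2 (5.40), the last 2 being arginases that compete for arginine, were below. Asl, which makes arginine, was at 7.36 ± 0.35 and was neither.

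For tetrahydrobiopterin, the cofactor that all synthases need, 2 of 5 measured genes were above, 1 was below and 2 were neither. Gch1, the rate-limiting enzyme, had 7.62, 6.82 and 7.83 in replicates 1, 2 and 3 and was neither (adjusted p = 0.204 from limma), as was its regulator gene Gchfr at 6.60 ± 0.16. Pts was at 8.57 and Qdpr at 7.77 in each sample, both above. The call of Qdpr ended with the spread of other probesets (adjusted p = 0.0595), and so did that of Spr (6.56), the gene below (adjusted p = 0.397).

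The cyclic GMP response, through which nitric oxide acts in its target cells, had 6 of 11 genes below (54.5%), 2 above (18.2%) and 3 neither, shares that are not over the 65.0% below and 22.9% above of all genes. The subunit genes of soluble guanylyl cyclase, the receptor of nitric oxide, were at 6.70 ± 0.26 for Gucy1a1 (neither), 5.77 ± 0.17 for Gucy1a2 and 5.63 ± 0.13 for Gucy1b1 (both below). Each of the 3 was highest in replicate 3, as were 8 of the 9 smooth muscle and pericyte markers and 15.2% of all genes. Of the 11 genes of this list 5 were highest in replicate 3. Another 3, Prkg1, Pde2a and Vasp, were lowest there, with Prkg1 at 6.52, 6.52 and 6.17. The part of smooth muscle cells and pericytes in these values was not tested. Pde5a, the cyclic GMP phosphodiesterase of smooth muscle, was below at 5.78 ± 0.02, and was chosen after its values were seen. Pde2a, a phosphodiesterase that cyclic GMP stimulates and that endothelium uses, was above at 8.42 ± 0.21 (adjusted p = 0.00699 from limma). Pde9a (6.84) was above with 3 equal values, and its adjusted p was 0.546 with the spread of other probesets. Prkg1 (6.41 ± 0.20) and Vasp (7.03 ± 0.37) were neither.

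Of 6 further genes of endothelin peptides and their peptidases, 4 were below (66.7%), 1 was above (16.7%) and 1 was neither, close to the 65.0% and 22.9% of all genes. Edn2, the remaining endothelin, was below at 5.63 ± 0.02, and so were Ece2 (5.38 ± 0.38), Kel (3.83) and the mast cell chymase gene Cma1 (4.30). Furin, the convertase that makes the first cut in the precursor, was at 6.87 in each sample, above with 3 equal values but not with the spread of other probesets (adjusted p = 0.451). Mme, the gene of neprilysin, a brush border peptidase that degrades endothelin, had 6.83, 6.60 and 7.37 and was neither.

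Of 18 measured genes that transmit the signal of endothelin receptors, 11 were above, 6 were below and 1, Arrb1 (6.79 ± 0.24), was neither. With the spread of other probesets 4 were below, since Itpr3 (6.50, adjusted p = 0.257 from limma) and Prkce (6.41, adjusted p = 0.145) lost their calls. The G protein genes Gnaq (8.13 ± 0.05), Gna11 (8.75 ± 0.18) and Gna13 (7.85 ± 0.12), which act downstream of the receptors, were above, while Gna12 (6.54 ± 0.02) was below. Of 12 transcription factors known from the control of Nos3 or Edn1, 9 were above, 1 was below and 2 were neither. Klf2 (7.59) and Klf4 (7.45), the flow-induced factors that raise Nos3, were above with 3 equal values. With the spread of other probesets their adjusted p was 0.0736 and 0.0933 from limma. At that setting 5 of the 12 were above, as were 3239 of all 19938 genes. Gata2 was at 6.92, 6.92 and 6.77 and was neither (adjusted p = 0.0725 from limma), as was Smad3 (6.57 ± 0.26). Fos, the gene below, was at 5.89 in each sample, while Jun, its partner in AP-1, was above at 8.67 ± 0.02, chosen after its values were seen.

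**Figure D4:**
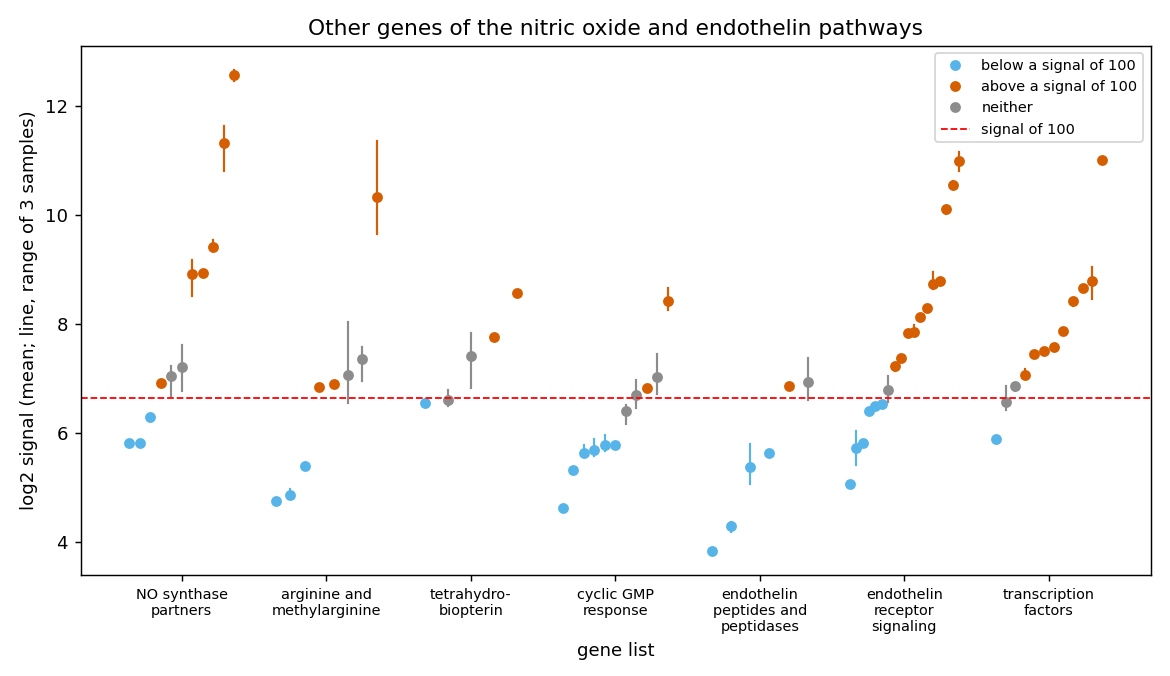
Mean log2 signal of the 71 measured genes of 7 lists, 1 point per gene, with a line for the range of the 3 samples, a dashed line at a signal of 100 and colors for the call by limma. Of the 71 genes 34 are called above and 24 below, against 22.9% above and 65.0% below among all genes.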

How the data were processed

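The authors deposited log2 signals per probeset, normalized by RMA in GeneSpring GX by the study's methods, while the submitters' processing notes list Affymetrix Expression Console. Which arrays were normalized jointly was not given in the sources used here. No further log transformation was applied. The table held 35557 probesets in 3 samples with 0 missing values, and the probe table gave 21789 of them 1 gene, 1621 several genes and 12147 no gene. Pairs of samples had a Pearson's r of 0.950, 0.942 and 0.941 over the probesets, which are not independent replicates. In 40.5% of probesets the 3 samples held the same number, and their SD of 0 makes p-values too small. In another 23.5% 2 of the 3 values were equal, and the alternative for equal values described below did not change their spread. Arrays have no read depth, and their number, 3, limits the precision.

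Each probeset was fitted in limma 3.58.1 (R 4.3.3) with an intercept and a mean-variance trend on the log2 value minus log2 of 100 (residual degrees of freedom 2, prior 0.297). Means above and below were tested one-sided with Benjamini-Hochberg adjustment over all probesets. In an alternative, probesets with 3 equal values took the median SD of the others in the same of 20 bins of mean. The fit was tested on simulated data, with spreads drawn from probesets whose values were not all equal. Probesets with equal values are thus not covered by that test. The other alternatives were limits of 50 and 200, no test, 2 other normalizations, no trend, probesets of 1 gene only, another choice of probeset and each replicate left out.

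The genes, the 7 pathway lists and the 9 marker lists were chosen with earlier results of these data known. Of 157 listed genes 10 had no probeset of their own. Irag1 was taken under its older symbol Mrvi1. Named genes were every nitric oxide and endothelin gene, the first 4 or fewer of each list as written, all genes behind a count of 5 or fewer, and the 3 genes nearest in pattern to the gene with the largest SD. Not every such gene is given here.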

Additional observations from a re-analysis of the deposited data

How the results depend on the processing

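The signal set as the limit moved the counts most. With a limit of 50, 8 of the 9 nitric oxide and endothelin genes were above and 1 was below, as were 56 and 8 of the 71 other pathway genes and 10224 and 8066 of all genes. Nos1 (adjusted p = 1.12e-07 from limma) and Edn3 (1e-07) were then above the limit. With a limit of 200, 18 pathway genes were above and 44 below, and 1869 of all genes were above. The means of Nos3 (adjusted p = 0.133) and Nostrin (0.117) then lay under the limit without being called below, and Ddah2 was not called above (0.0556). Leaving out 1 replicate left 2 to 3 of the 9 genes above, the lower count without replicate 1, and 3 below. It left 25 to 30 pathway genes above and 21 to 22 below, and 3320 to 3418 of all genes above. The cause was not tested, but each such fit has 1 sample fewer. Of 99 values of single genes under the alternatives, 86 kept their direction and side of the threshold, 6 lost the call, 3 gained it and 4 changed direction, the last all through the limit. The 86 include 9 from another choice of probeset, which could not differ because each of the 9 genes had 1 probeset. Quantile normalization and columns at the same median kept 4 genes above and 3 below, with Nos3, Nostrin and Ednrb lowest in replicate 3. No paired analysis was possible because the samples form 1 group. The signal has no measured background in these files, so a gene below 100 is not shown to be unexpressed.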

Other observations

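Edn1 belongs to the genes that cells can induce quickly, and dissociation of tissue is known to induce early response genes. Of 7 such genes 6 were below a signal of 100 in the sorted cells, where 65.0% of all genes were below, with Fosb at a log2 signal of 5.96 in each sample, Junb at 6.09 ± 0.15, Egr1 at 6.13 ± 0.03 and Atf3 at 5.72 ± 0.34 (SD, n = 3). The gene above was Dusp1, a phosphatase of MAP kinases, at 9.01, 8.61 and 8.32 in replicates 1, 2 and 3 (adjusted p = 0.0154 from limma), while Edn1 had 8.21, 8.43 and 8.21. Jun, an early response gene counted with the transcription factors, was above as well, at 8.67 ± 0.02 (adjusted p = 3.09e-05 from limma), and Fos of that list was below at 5.89. All samples were dissociated, and the part of dissociation in the Edn1 value was not tested.

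Of 6 fibroblast markers 5 were below (83.3%, against 65.0% of all genes), with Col1a2 at 6.09 and Dcn at 4.93 ± 0.34. The gene above was Col1a1, at 6.92 in each sample, which was not above when its equal values were given the spread of other probesets (adjusted p = 0.4 from limma).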
